A study of Mus musculus with 48 samples.

Results

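The genes described here are 10 members of the prostaglandin and leukotriene pathways, enzymes with 1 helper protein and 1 receptor, chosen by symbol from the 18782 genes of the deposited count table: Ptgs1, Ptgs2, Ptges, Ptgis, Tbxas1, Hpgds, Alox5, Alox5ap, Alox15 and Ltb4r1. The choice was made with earlier results of these data known. All 10 were listed, and all 10 were among the 14431 genes that passed the filter on low counts. They were measured by strand-specific RNA-seq in the thoracic aorta (ascending aorta, arch and proximal descending segment) of wild-type C57BL/6J mice, with 1 library per mouse and 48 libraries in all. All mice were 3 weeks old at the start. Female and male controls, FeCon (n = 10) and MaCon (n = 10), drank normal water. The other mice drank water with 0.4% BAPN, a lysyl oxidase inhibitor that weakens the crosslinks of the aortic wall, for 28 days. Survivors were sorted by outcome into FeNonAD (n = 8) and MaNonAD (n = 4), which had no aortic lesion on microscopy, and FeAAD (n = 9) and MaAAD (n = 7), which had a dissection or aneurysm. NonAD and AAD mice therefore differ by an outcome that was not assigned, mice that died of rupture are not included, and the methods describe the sequenced segments as lesioned, which can hold only for AAD mice.

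Prostaglandins and leukotrienes are short-lived lipid signals made from arachidonic acid, which phospholipases release from membranes. Cyclooxygenases turn it into prostaglandin H, and terminal synthases turn that into prostacyclin, thromboxane, prostaglandin E or prostaglandin D. The enzyme 5-lipoxygenase, helped by its activating protein FLAP, starts the leukotrienes, which attract and activate leukocytes. In the vessel wall prostacyclin is known to relax smooth muscle and restrain platelets, while thromboxane has the opposite actions.

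Levels are given as CPM (a library's counts scaled to a common total by TMM factors), from library totals of 13548003 to 17281262. The tissue label was borne out by contractile smooth muscle markers (Acta2, Myh11 and 5 others), whose summed level was 11779 CPM or more in every library. FeAAD5 and MaAAD7 stood apart from the other AAD libraries. They had the highest summed macrophage markers of their groups, 1925 and 1865 CPM against group medians of 631 and 893 CPM, and the highest summed neutrophil markers, 882 and 237 CPM against 11.9 and 22.1 CPM. Each was also the highest library of its group for 8 of the 10 genes, so values without them are given where they matter. Mice were the replicates, and p-values refer to the spread between mice.

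In dissected or aneurysmal aortas the thromboxane synthase, prostaglandin D synthase, FLAP, inducible cyclooxygenase and leukotriene B4 receptor transcripts were higher than in controls of both sexes, and the prostacyclin synthase transcript was lower by less than 2-fold. Below, rose and fell are used of genes with an adjusted p under 0.05 in edgeR's quasi-likelihood test, and DEG of those that also changed at least 2-fold (1 or more on the log2 scale, up or down). In FeAAD vs FeCon, 5 of the 10 were DEGs, all higher (Ptgs2, Tbxas1, Hpgds, Alox5ap and Ltb4r1), where 9.94% of all tested genes were higher DEGs and 2.78% lower. In MaAAD vs MaCon these 5 and Alox5 were DEGs, all higher, against 9.18% of all genes higher and 2.18% lower. The same 5 as in FeAAD vs FeCon were higher DEGs in FeAAD vs FeNonAD, where 6.79% of all genes were higher and 0.249% lower. The median log2 fold change of the 10 was 1.33, 1.57 and 1.05 in these comparisons, beside medians between -0.030 and 0.0013 over all tested genes. These comparisons share libraries within a sex and are not independent of each other. The 10 genes were chosen with earlier results of these data known, so the counts and medians describe the set and do not test it.

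In the step from control to BAPN without a lesion, few of the 10 moved. None was a DEG in FeNonAD vs FeCon by edgeR or DESeq2, where 1.67% of all genes were higher and 1.08% lower DEGs, and 3 had an unadjusted p under 0.05, as did 28.9% of all genes. In MaNonAD vs MaCon the only DEG was Hpgds, where 0.381% of all genes were higher and 0.097% lower. None was a DEG in MaAAD vs MaNonAD by edgeR, where 0.353% of all genes were higher and 0% lower, although 9 had an unadjusted p under 0.05, beside 18.7% of all genes. DESeq2 called 5 of them (Tbxas1, Hpgds, Alox5ap and Ltb4r1 higher, Alox15 lower), beside 3.35% of all genes higher and 0.0666% lower. Leaving out FeAAD5, which is in neither group but enters the shared estimate of the spread, gave the same 5 with edgeR. Only 4 mice were in the MaNonAD group.

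**Figure D1:**
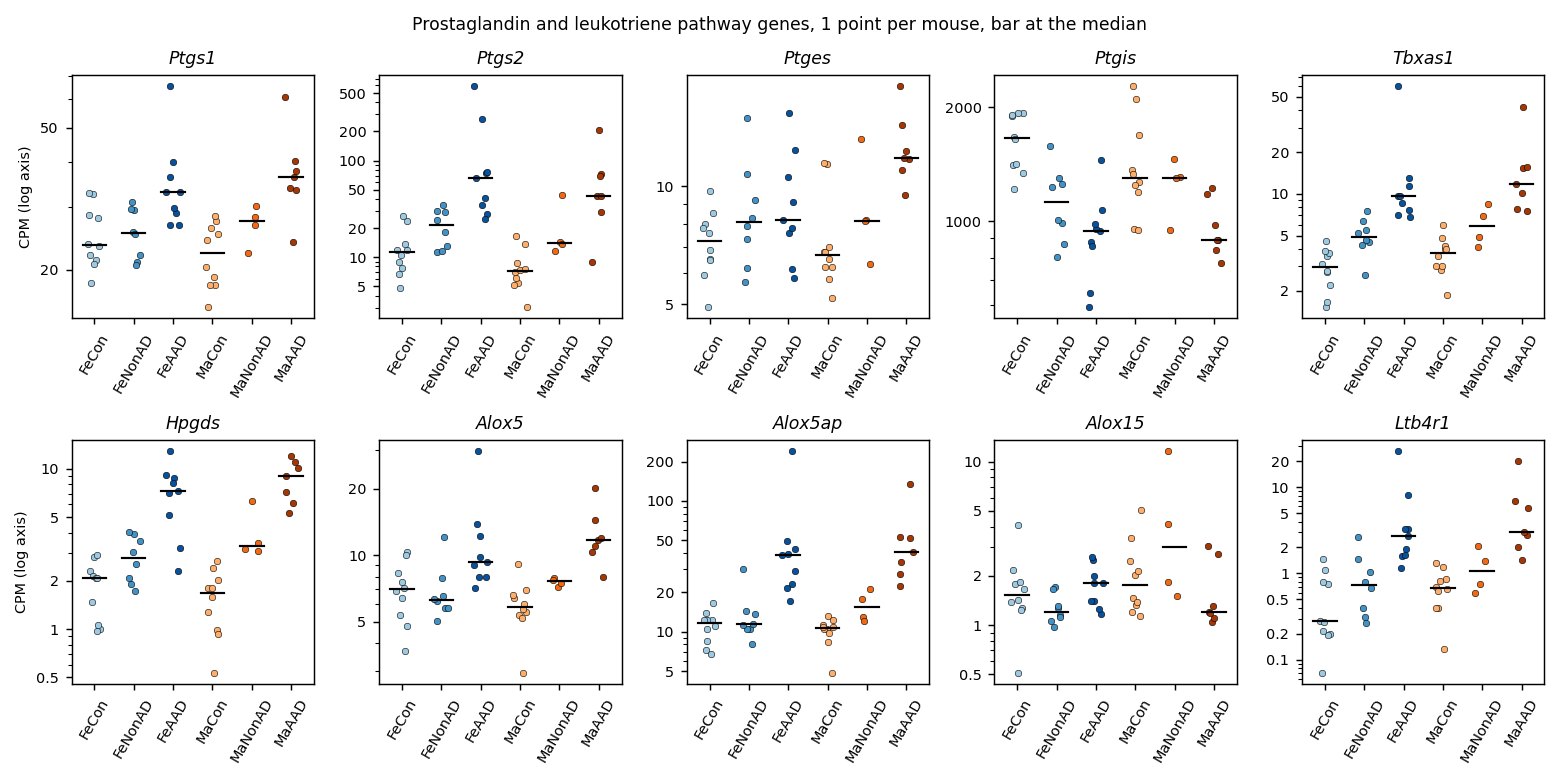
Level of each gene in CPM on a log axis, with 1 point per mouse and a bar at the group median, for the 3 female and 3 male groups. Each panel has its own scale. Ptgis is lower in both AAD groups than in controls, while Ptgs2, Tbxas1, Hpgds, Alox5ap and Ltb4r1 are higher in both AAD groups, with FeAAD5 and MaAAD7 at or near the top.

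Per kilobase of the longest annotated transcript, Ptgis was the most abundant of the 10 over all libraries, with a mean of 592 CPM per kb. Alox5ap followed at 20.9 CPM per kb, then Ptgs2 at 10.0 and Ptgs1 at 9.98. The other 6 lay between 0.830 (Alox15) and 2.42 CPM per kb (Ptges). These means pool groups of unlike levels, and the order below Ptgis differed in controls. In FeCon, Alox5ap was at 8.92, Ptgs1 at 8.76 and Ptgs2 at 2.83 CPM per kb, and Ltb4r1 was lowest at 0.382. In MaCon, Alox5ap was at 8.19, Ptgs1 at 7.77 and Ptgs2 at 1.81 CPM per kb, and Hpgds was lowest at 0.411. In the mean over all libraries, the prostacyclin synthase transcript thus exceeded that of every other enzyme of the set by more than an order of magnitude. The gap was smaller in single libraries, such as FeAAD9 with Ptgis at 861 CPM and Ptgs2 at 597 CPM.

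Cyclooxygenases. Ptgs1 (ENSMUSG00000047250.13, chromosome 2, 36230426 to 36252272, GRCm38, plus strand) encodes the constitutive cyclooxygenase COX-1, and Ptgs2 (ENSMUSG00000032487.8, chromosome 1, 150100031 to 150108227, plus strand) the inducible COX-2. The 250 bases before each start site are shown because their transcripts moved so differently. They are RefSeq sequence of GRCm38.p6, both on the plus strand, chr2:36230176-36230425 for Ptgs1 and chr1:150099781-150100030 for Ptgs2, with matched motifs in capitals.
Ptgs1: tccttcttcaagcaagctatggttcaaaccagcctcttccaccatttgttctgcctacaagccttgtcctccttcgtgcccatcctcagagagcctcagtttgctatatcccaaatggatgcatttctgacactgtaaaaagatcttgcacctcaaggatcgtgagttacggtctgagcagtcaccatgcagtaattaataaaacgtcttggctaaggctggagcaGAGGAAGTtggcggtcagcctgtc
Ptgs2: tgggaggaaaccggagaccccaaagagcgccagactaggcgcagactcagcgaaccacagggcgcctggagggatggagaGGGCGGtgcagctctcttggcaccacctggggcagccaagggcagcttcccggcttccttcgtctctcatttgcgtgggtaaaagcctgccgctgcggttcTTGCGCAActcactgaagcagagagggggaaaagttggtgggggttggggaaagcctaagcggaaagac
Ptgs2, within 50 bases after the start, chr1:150100037-150100066: accactACGTCACGTGgagtccgctttaca
The Ptgs2 capitals mark a GC box (GGGCGG), a C/EBP match (TTGCNNAA) and, after the annotated start, a CRE core (TGACGT, here on the other strand) that shares 2 bases with an E-box (CACGTG). The single match before Ptgs1 was an ETS motif (GAGGAAGT).

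Windows of 300 bases, from 250 before to 50 after the start, were present for 7 of the 10 genes, and were searched on both strands for these motifs and for the TATA box (TATAAA), AP-1 (TGANTCA) and the NF-kB motif. Of 32817 such mouse windows, 35.6% held the GC box, 13.6% the TATA box, 10.8% the C/EBP match, 8.46% the NF-kB motif, 7.81% AP-1, 7.51% the CRE core, 7.15% the E-box and 3.20% the ETS motif. The NF-kB motif had no match in the 7 windows. Ptges held 2 GC boxes and Alox5 held 1, with no other match in either. A match describes these letters and does not show binding.

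Ptgs2 ranged from 4.77 to 26.8 CPM (median 11.2) in FeCon, from 11.2 to 34.9 CPM (median 21.3) in FeNonAD and from 24.8 to 597 CPM (median 66.0) in FeAAD. In males it ranged from 3.03 to 16.5 CPM (median 7.20) in MaCon and from 8.92 to 206 CPM (median 43.4) in MaAAD, and the 4 MaNonAD mice lay between 11.5 and 44.3 CPM. Of the 9 FeAAD mice 8 were above every FeCon mouse, and of the 7 MaAAD mice 6 were above every MaCon mouse, so the groups overlapped by single animals. The rise was 10.7-fold in females (log2 fold change 3.42 ± 0.51 SE, adjusted p = 5.91e-07) and 8.38-fold in males (3.07 ± 0.53, adjusted p = 9.19e-06). FeAAD also exceeded FeNonAD (2.63 ± 0.54, adjusted p = 0.000409). Without FeAAD9, the highest library, the values were 2.61 (adjusted p = 5.52e-06) against FeCon and 1.82 (adjusted p = 0.00448) against FeNonAD, and without MaAAD7 the male value was 2.46 (adjusted p = 0.000194). From control to NonAD the log2 fold change was 0.78 ± 0.50 for females (adjusted p = 0.302) and, for males, 1.38 ± 0.60 (adjusted p = 0.316). The male value was 0.71 (adjusted p = 0.906) without MaNonAD1, the mouse at 44.3 CPM, and the other 3 MaNonAD mice were at 14.4 CPM or below.

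FeAAD9 is a case of its own. It had the highest Ptgs2 of all libraries at 597 CPM, and yet the lowest Hpgds (2.30 CPM) and the lowest Alox5 (7.13 CPM) of its group. Its neutrophil marker sum was 201 CPM, second to FeAAD5 in its group, while its macrophage marker sum of 539 CPM was below the group median.

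Ptgs1 varied far less. Its medians were 23.4, 25.4 and 33.1 CPM in FeCon, FeNonAD and FeAAD, and 22.3, 27.4 and 36.3 CPM in MaCon, MaNonAD and MaAAD. All 9 FeAAD mice were above the FeCon median and all 7 MaAAD mice above the MaCon median, though the ranges overlapped. The rise in AAD was 1.42-fold in females (0.50 ± 0.15, adjusted p = 0.00469) and 1.71-fold in males (0.78 ± 0.16, adjusted p = 0.000101), below the 2-fold limit in both.

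The balance of the cyclooxygenases was compared within each library as the log2 ratio of Ptgs2 to Ptgs1 CPM, by an exact two-sided permutation test over mice, with p adjusted over 18 such tests (2 ratios in 9 comparisons). Ptgs2 CPM exceeded Ptgs1 CPM in 1 of 10 FeCon, 3 of 8 FeNonAD and 8 of 9 FeAAD libraries. In males it did so in 0 of 10 MaCon, 1 of 4 MaNonAD and 5 of 7 MaAAD libraries. The mean log2 ratio was -1.15 ± 0.78 (SD) in FeCon and 1.09 ± 1.28 in FeAAD, a difference of 2.24 (adjusted p = 0.000844, exact permutation test). It was -1.58 ± 0.64 in MaCon and 0.35 ± 1.03 in MaAAD, a difference of 1.93 (adjusted p = 0.00130, exact permutation test). FeAAD and FeNonAD differed by 1.44 (adjusted p = 0.0190), and MaAAD and MaNonAD by 0.93 (adjusted p = 0.214), by the same exact test. The ratio takes no account of transcript length, which is the same in every library and so does not affect differences between groups. The longest transcripts are 4453 bases for Ptgs2 and 2867 bases for Ptgs1, so these library counts do not show which transcript was more abundant. The ratio uses the same values as the tests of each gene and is not independent of them.

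**Figure D2:**
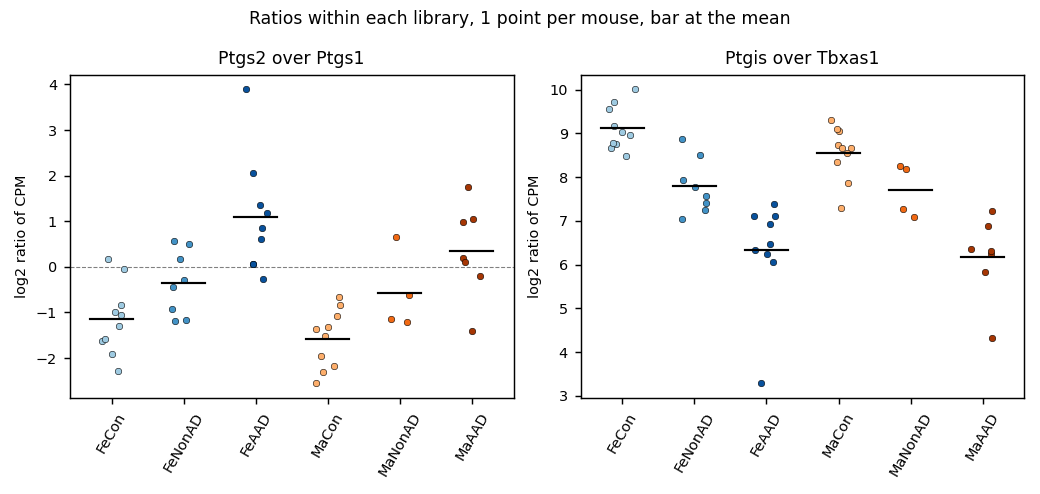
Log2 ratio of Ptgs2 to Ptgs1 CPM (left) and of Ptgis to Tbxas1 CPM (right) in each library, with a bar at the group mean. The dashed line is where the CPM of Ptgs2 equals that of Ptgs1, without regard to transcript length. In both AAD groups most points of the left panel lie above the line and the right panel is lowest, with FeAAD5 at 3.29 and MaAAD7 at 4.31.

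Terminal synthases. Ptgis (ENSMUSG00000017969.13, chromosome 2, 167191805 to 167240604, minus strand) encodes prostacyclin synthase. It ranged from 1213 to 1928 CPM (median 1660) in FeCon, from 804 to 1576 CPM (median 1121) in FeNonAD and from 592 to 1450 CPM (median 939) in FeAAD. MaCon mice spanned 949 to 2281 CPM (median 1300), MaNonAD 945 to 1458 CPM and MaAAD 773 to 1222 CPM (median 891). Of the FeAAD mice 8 of 9 were below every FeCon mouse, and of the MaAAD mice 4 of 7 were below every MaCon mouse. Ptgis fell by 0.81 on the log2 scale in FeAAD vs FeCon (SE 0.15, adjusted p = 3.22e-05) and by 0.57 in MaAAD vs MaCon (SE 0.17, adjusted p = 0.00591). It had also fallen in FeNonAD, by 0.53 (SE 0.16, adjusted p = 0.0186), the one gene of the 10 with an adjusted p under 0.05 in that comparison, as 14.5% of all genes had. In FeAAD vs FeCon 8 of the 10 had one, beside 44.4% of all genes. In MaNonAD the log2 fold change was -0.20 ± 0.20 (adjusted p = 0.768). None of these reached 2-fold.

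Contractile smooth muscle markers moved in the same direction. Their summed level had medians of 43232, 31399 and 21670 CPM in FeCon, FeNonAD and FeAAD and of 41276, 33798 and 20671 CPM in MaCon, MaNonAD and MaAAD. The part of this in the Ptgis values was not tested, and in bulk tissue fewer cells of a type and less RNA per cell cannot be told apart. Endothelial markers, of the other cell type known for prostacyclin, had medians of 816, 645 and 704 CPM in the female groups and 733, 801 and 726 CPM in the male groups.

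Tbxas1 (ENSMUSG00000029925.13, chromosome 6, 38875404 to 39084585, plus strand) encodes thromboxane A synthase, and Hpgds (ENSMUSG00000029919.5, chromosome 6, 65117293 to 65144908, minus strand) the hematopoietic prostaglandin D synthase. Both were DEGs in AAD of both sexes, so the bases before their RefSeq starts are shown, chr6:38918736-38918985 on the plus strand for Tbxas1 and chr6:65144731-65144980 on the minus strand for Hpgds, GRCm38.p6, written 5′ to 3′ along the gene. The RefSeq starts of both genes, and that of Ptges, lie inside the longer GENCODE genes. Some or all of the bases before these starts are therefore within an annotated gene.
Tbxas1: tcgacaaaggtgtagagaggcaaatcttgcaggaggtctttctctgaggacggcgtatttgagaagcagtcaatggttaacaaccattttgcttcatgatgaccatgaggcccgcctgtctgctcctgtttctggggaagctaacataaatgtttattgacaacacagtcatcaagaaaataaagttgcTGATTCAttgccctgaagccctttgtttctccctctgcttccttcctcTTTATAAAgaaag
Hpgds: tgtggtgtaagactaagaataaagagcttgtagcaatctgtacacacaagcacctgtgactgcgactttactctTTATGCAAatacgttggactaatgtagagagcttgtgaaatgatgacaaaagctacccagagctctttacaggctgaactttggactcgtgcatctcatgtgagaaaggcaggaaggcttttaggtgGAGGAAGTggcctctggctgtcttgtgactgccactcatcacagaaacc
Capitals in Tbxas1 mark an AP-1 match and, close to the start, TATA box letters read on both strands that overlap each other. In Hpgds they mark a C/EBP match and the same ETS letters as before Ptgs1.

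Tbxas1 ranged from 1.52 to 4.56 CPM (median 2.95) in FeCon, from 2.60 to 7.52 CPM (median 4.92) in FeNonAD and from 6.77 to 60.3 CPM (median 9.59) in FeAAD. It ranged from 1.87 to 5.93 CPM (median 3.76) in MaCon, from 4.14 to 8.41 CPM in MaNonAD and from 7.50 to 42.0 CPM (median 11.8) in MaAAD. Every AAD mouse was above every control mouse of its sex, and the NonAD mice lay between with overlap on each side. The rise over controls was 4.99-fold in FeAAD (2.32 ± 0.34, adjusted p = 3.65e-07) and 4.22-fold in MaAAD (2.08 ± 0.35, adjusted p = 5.90e-06). Over 14 alternative fits the MaAAD vs MaCon value was 1.61 or more. Without FeAAD5 the female value was 1.63 (adjusted p = 1.61e-06). Against FeNonAD it was 1.55 ± 0.35 (adjusted p = 0.00136), but without FeAAD5 it was 0.86 (adjusted p = 0.0262) and no longer a DEG. Platelets also carry this enzyme, and the summed platelet markers were highest in FeAAD5 (836 CPM) and MaAAD7 (514 CPM), while the medians of 210 CPM in FeAAD and 193 CPM in MaAAD were below the control medians of 224 and 214 CPM. Of 7 tested platelet markers 5 were higher DEGs in FeAAD vs FeCon (Gp9, Itga2b, Pf4, Ppbp and Treml1) and 3 in MaAAD vs MaCon (Pf4, Ppbp and Treml1), with none lower. Their part in the Tbxas1 result was not tested.

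Hpgds was at 0.969 to 2.89 CPM (median 2.09) in FeCon, 1.74 to 4.01 CPM (median 2.78) in FeNonAD and 2.30 to 13.0 CPM (median 7.27) in FeAAD. In males it was at 0.535 to 2.68 CPM (median 1.69) in MaCon and 5.27 to 12.1 CPM (median 9.08) in MaAAD, and at 3.09, 3.14, 3.44 and 6.35 CPM in the 4 MaNonAD mice. All MaNonAD and MaAAD mice were above every MaCon mouse, and 8 of 9 FeAAD mice were above every FeCon mouse. Hpgds rose 3.76-fold in FeAAD vs FeCon (1.91 ± 0.27, adjusted p = 1.56e-07), 5.41-fold in MaAAD vs MaCon (2.44 ± 0.28, adjusted p = 9.43e-09) and 2.50-fold in FeAAD vs FeNonAD (1.32 ± 0.28, adjusted p = 0.000627). It had the lowest adjusted p of the 10 in both comparisons of AAD with control.

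The MaNonAD rise of Hpgds was 2.49-fold (1.32 ± 0.33, adjusted p = 0.0417). It was not a DEG without MaNonAD1 (1.00, adjusted p = 0.590) or without MaNonAD3 (1.44, adjusted p = 0.0653). The corresponding female value in FeNonAD was 0.59 ± 0.28 (adjusted p = 0.145), and the difference between the sexes, 0.73 ± 0.44, had an adjusted p of 0.547. B cell markers also moved in this comparison: 4 of 5 were higher DEGs in MaNonAD vs MaCon (Cd79a, Cd79b, Ms4a1 and Pax5), and their summed level was 7.32 to 20.5 CPM in MaNonAD and 0.856 to 5.50 CPM in MaCon. The summed eosinophil markers were at 0.446 to 0.920 CPM in MaNonAD and 0 to 0.281 CPM in MaCon. No macrophage marker was a DEG in this comparison, but 6 of 10 had an unadjusted p under 0.05 in edgeR's test, beside 12% of all genes. The part of these markers in the Hpgds result was not tested.

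Mast cells are a known source of prostaglandin D. By adjusted p alone, 1 of their 9 tested markers rose and 1 fell in FeAAD vs FeCon, and 2 rose and 0 fell in MaAAD vs MaCon. Of 9 tested mast cell markers 1 was a higher DEG in FeAAD vs FeCon (Kit) and 1 in MaAAD vs MaCon (Hdc), with none lower, and the summed level had medians of 51.2 CPM in FeCon, 40.8 in FeAAD, 40.6 in MaCon and 51.9 in MaAAD. Macrophage markers moved with Hpgds and Tbxas1: 8 of 10 were higher DEGs in both comparisons of AAD with control, while Mertk fell, below 2-fold, in each (-0.59, adjusted p = 0.000437, in females and -0.72, adjusted p = 0.000161, in males). Their summed level had medians of 407, 423 and 631 CPM in FeCon, FeNonAD and FeAAD and 393, 487 and 893 CPM in MaCon, MaNonAD and MaAAD. No macrophage marker was at 0 in every library of any group. In FeAAD vs FeCon and MaAAD vs MaCon, B cell markers were higher DEGs in 5 and 3 of 5 tested, neutrophil markers in 5 and 4 of 6 (with Ngp lower in males), and Siglecf, the 1 eosinophil marker tested, in both. Of 6 heart muscle markers 4 were lower DEGs in females (Actn2, Myl2, Myl3 and Tnnt2) and 1 in males (Actn2). Of 7 fibroblast markers 2 were higher DEGs in each sex (Col1a1 and Lum), with medians of the summed level of 6556 CPM in FeCon, 7996 in FeAAD, 7071 in MaCon and 11444 in MaAAD, and of 5 mesothelial markers 1 was lower in females (Upk3b). The part of these cell types in the results was not tested.

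Ptges (ENSMUSG00000050737.13, chromosome 2, 30889471 to 30929863, minus strand) encodes the inducible microsomal prostaglandin E synthase, which is often coupled to COX-2. Its medians were 7.24, 8.12 and 8.19 CPM in FeCon, FeNonAD and FeAAD and 6.67, 8.18 and 11.8 CPM in MaCon, MaNonAD and MaAAD. It rose 1.73-fold in MaAAD vs MaCon (0.79 ± 0.19, adjusted p = 0.000887), below the 2-fold limit, with 5 of 7 mice above every MaCon mouse. In FeAAD vs FeCon the log2 fold change was 0.35 ± 0.18 (adjusted p = 0.109). The difference between the sexes, 0.44 ± 0.26, had an adjusted p of 0.425.

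The balance of the prostacyclin and thromboxane synthase transcripts was compared as the log2 ratio of Ptgis to Tbxas1 CPM, without regard to transcript length. It uses the same values as the tests of each gene above and is not independent of them. Ptgis CPM was a median of 525 times that of Tbxas1 in FeCon, 208 times in FeNonAD and 89.1 times in FeAAD, and 421, 226 and 80.2 times in the male groups taken in the same order. The mean log2 ratio fell by 2.78 from FeCon to FeAAD (9.11 ± 0.50 and 6.33 ± 1.23, SD), with an adjusted p of 0.000195 by the exact permutation test, whose raw p was the smallest its groupings allow. It fell by 1.32 from FeCon to FeNonAD (adjusted p = 0.00103) and by 1.46 from FeNonAD to FeAAD (adjusted p = 0.00321), by the same exact test. In males it fell by 2.39 from MaCon to MaAAD (adjusted p = 0.000463, exact permutation test) and by 1.53 from MaNonAD to MaAAD (adjusted p = 0.0341), and the difference between MaNonAD and MaCon was -0.86 (adjusted p = 0.0578). The MaNonAD to MaAAD step missed the threshold without MaNonAD2 (-1.37, adjusted p = 0.0625), without MaNonAD3 (-1.68, adjusted p = 0.0706) and without MaNonAD4 (-1.35, adjusted p = 0.0625), and the difference between MaNonAD and MaCon passed it without MaNonAD2 (-1.02, adjusted p = 0.0472) or MaNonAD4 (-1.05, adjusted p = 0.0472), by exact permutation tests.

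Lipoxygenase branch. Alox5ap (ENSMUSG00000060063.9, chromosome 5, 149264767 to 149288153, plus strand) encodes FLAP, which presents arachidonic acid to 5-lipoxygenase. It ranged from 6.78 to 16.7 CPM (median 11.6) in FeCon, from 8.12 to 30.1 CPM (median 11.4) in FeNonAD and from 17.2 to 241 CPM (median 38.3) in FeAAD. In males it ranged from 4.88 to 13.1 CPM (median 10.7) in MaCon, from 12.2 to 21.1 CPM in MaNonAD and from 22.3 to 134 CPM (median 40.6) in MaAAD. Every AAD mouse was above every control mouse of its sex, and every MaAAD mouse above every MaNonAD mouse. The rise was 4.99-fold in FeAAD vs FeCon (2.32 ± 0.35, adjusted p = 6.99e-07), 5.07-fold in MaAAD vs MaCon (2.34 ± 0.37, adjusted p = 1.78e-06) and 4.05-fold in FeAAD vs FeNonAD (2.02 ± 0.37, adjusted p = 0.000161). Over 14 alternative fits the MaAAD vs MaCon value was 1.90 or more. Without FeAAD5 the female values were 1.54 (adjusted p = 4.52e-06) against FeCon and 1.24 (adjusted p = 0.00164) against FeNonAD. In FeNonAD vs FeCon it was 0.30 ± 0.36 (adjusted p = 0.612), and the highest FeNonAD mouse, FeNonAD8, had also the highest macrophage marker sum of its group at 693 CPM.

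Alox5 (ENSMUSG00000025701.12, chromosome 6, 116410077 to 116461178, minus strand) encodes 5-lipoxygenase itself. Its medians were 6.99, 6.27 and 9.27 CPM in FeCon, FeNonAD and FeAAD and 5.84, 7.62 and 11.7 CPM in MaCon, MaNonAD and MaAAD. The female ranges overlapped, with 3 of 9 FeAAD mice above every FeCon mouse, whereas 6 of 7 MaAAD mice were above every MaCon mouse. It rose 2.09-fold in MaAAD vs MaCon (1.06 ± 0.23, adjusted p = 0.000200) and 1.68-fold in FeAAD vs FeCon (0.75 ± 0.21, adjusted p = 0.00349). Without MaAAD7 the male value was 0.91 (adjusted p = 0.00190) and no longer a DEG, and the difference between the sexes, 0.31 ± 0.31, had an adjusted p of 0.674. Both values were smaller than those of Alox5ap, and the difference between the genes was not tested.

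Alox15 (ENSMUSG00000018924.6, chromosome 11, 70344152 to 70352031, minus strand) encodes the 12/15-lipoxygenase, which makes lipoxin and related precursors. It did not follow the other genes. Its medians were 1.54, 1.21 and 1.81 CPM in FeCon, FeNonAD and FeAAD and 1.75 and 1.21 CPM in MaCon and MaAAD, and the log2 fold change was 0.028 ± 0.32 in FeAAD vs FeCon (adjusted p = 0.954) and -0.38 ± 0.34 in MaAAD vs MaCon (adjusted p = 0.401). The 4 MaNonAD mice were at 1.497, 1.84, 4.14 and 11.6 CPM, so the group's high mean rested on MaNonAD2 and MaNonAD4. MaNonAD vs FeNonAD was the one comparison between the sexes with a DEG among the 10, Alox15 (1.89 ± 0.40, adjusted p = 0.0317), where 0.0416% of all genes were higher in males and 0.00693% lower. It was not a DEG without MaNonAD4 (0.96, adjusted p = 0.389), without MaNonAD2 (1.95, adjusted p = 0.0551) or in a fit of the compared groups only (1.89, adjusted p = 0.203). With MaAAD vs MaNonAD the value was -1.52 ± 0.41 (adjusted p = 0.0507), and -0.58 (adjusted p = 0.474) without MaNonAD4. Among B cell markers, 1 of 5 was a higher DEG in MaNonAD vs FeNonAD (Ms4a1), and their summed level was 20.5 CPM in MaNonAD4 and 7.32 CPM in MaNonAD2, the highest and lowest of the MaNonAD group. Their part in the Alox15 result was not tested.

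The receptor. Ltb4r1 (ENSMUSG00000046908.5, chromosome 14, 55765962 to 55768494, plus strand) encodes BLT1, the high-affinity receptor for leukotriene B4 on leukocytes. Its window, chr14:55765712-55765961 (RefSeq, GRCm38.p6, plus strand), is shown because it held a GC box just before the start and the ETS letters, read on the other strand, at the first bases after it.
Ltb4r1: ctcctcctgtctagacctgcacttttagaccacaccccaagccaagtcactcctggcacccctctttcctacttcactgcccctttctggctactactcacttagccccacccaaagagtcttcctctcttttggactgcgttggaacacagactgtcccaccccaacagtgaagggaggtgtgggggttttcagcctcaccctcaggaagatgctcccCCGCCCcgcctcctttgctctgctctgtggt
Ltb4r1, after the start, chr14:55765962-55765991: ACTTCCTCtctggctgacttagctgacaga
The ETS letters were thus in 3 of the 7 windows, those of Ptgs1, Hpgds and Ltb4r1, of which the transcripts changed by very unequal amounts.

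Ltb4r1 was close to the limit of detection in controls, with 1 to 23 counts per library in FeCon and 2 to 21 in MaCon. It ranged from 0.0709 to 1.46 CPM (median 0.281) in FeCon, from 0.266 to 2.68 CPM (median 0.736) in FeNonAD and from 1.15 to 26.4 CPM (median 2.70) in FeAAD. MaCon mice had 0.134 to 1.34 CPM (median 0.686), MaNonAD 0.601 to 2.10 CPM and MaAAD 1.41 to 20.0 CPM (median 3.04). Every MaAAD mouse was above every MaCon mouse, and 8 of 9 FeAAD mice were above every FeCon mouse. The rise was 10.3-fold in FeAAD vs FeCon (3.36 ± 0.57, adjusted p = 5.47e-06), 8.32-fold in MaAAD vs MaCon (3.06 ± 0.57, adjusted p = 3.51e-05) and 5.78-fold in FeAAD vs FeNonAD (2.53 ± 0.58, adjusted p = 0.00161). Without FeAAD5 the female values were 2.45 (adjusted p = 0.000103) and 1.62 (adjusted p = 0.0294), and without MaAAD7 the male value was 2.35 (adjusted p = 0.000940). Neutrophil markers moved with it: 5 of 6 tested were higher DEGs in FeAAD vs FeCon and 4 of 6 in MaAAD vs MaCon, where Ngp was lower. Their summed level had medians of 3.16 and 11.9 CPM in FeCon and FeAAD and 3.62 and 22.1 CPM in MaCon and MaAAD. Their part in the result was not tested.

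**Figure D3:**
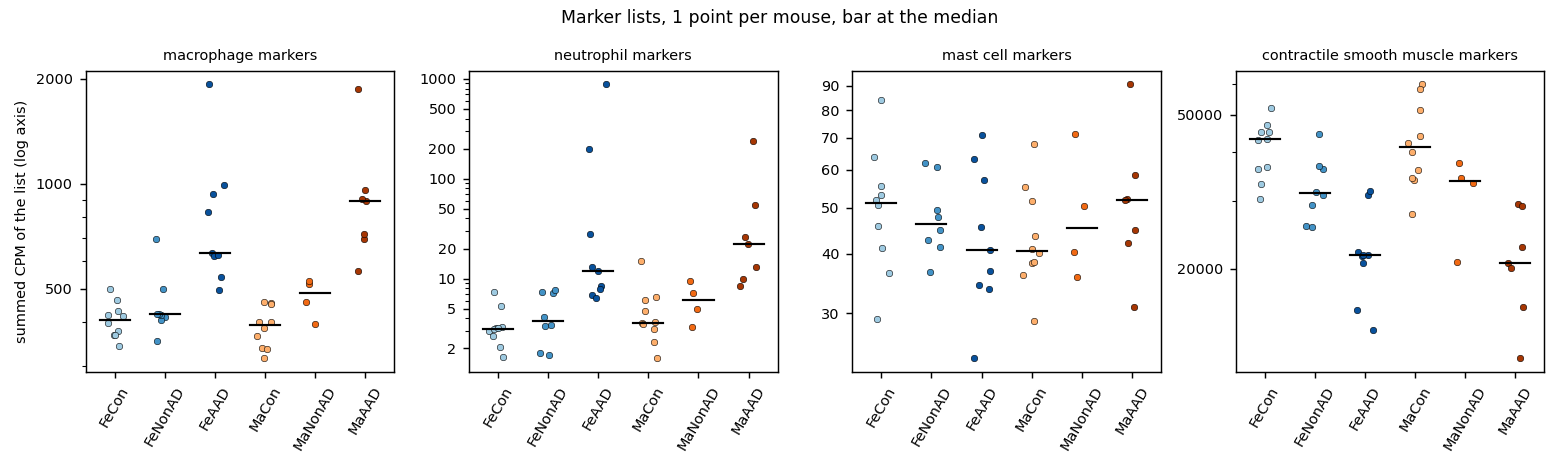
Summed CPM of the macrophage (10 genes), neutrophil (10), mast cell (10) and contractile smooth muscle (7) marker lists in each library on log axes, with a bar at the group median. Macrophage and neutrophil sums are highest in the AAD groups, with FeAAD5 and MaAAD7 on top, smooth muscle sums are lowest there, and mast cell sums overlap in all 6 groups.

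Male and female groups of the same condition were then compared. No gene of the set was a DEG in MaCon vs FeCon by either tool, where 0.644% of all genes were higher in males and 0.866% lower and no member had an unadjusted p under 0.05, beside 29.1% of all genes. The lowest adjusted p of the 10 was that of Ptgs2 (-0.64 ± 0.49, adjusted p = 0.391). In MaAAD vs FeAAD edgeR and DESeq2 called none of them, beside 0.0554% of all genes higher and 0.0139% lower, and 1 had an unadjusted p under 0.05, beside 2.22% of all genes (Ptges, 0.46 ± 0.19, adjusted p = 1.00). The largest value there was that of Ptgs2 (-0.995 ± 0.52, adjusted p = 1.00), which was -0.18 without FeAAD9 and -1.60 without MaAAD7. Alox15 in MaNonAD vs FeNonAD is described above. The difference between male and female responses was tested as an interaction. None of the 10 was called by edgeR or DESeq2 for the NonAD response (0.215% of all genes higher and 0.0832% lower), the AAD response (0.346% and 0.173%) or the step from NonAD to AAD (0% and 0%), and 1, 0 and 1 of them had an unadjusted p under 0.05, beside 12.1%, 15.4% and 1.04% of all genes. That 1 was Alox15 in both cases, with a difference of 1.58 ± 0.51 in the NonAD response (adjusted p = 0.152), which was 0.65 without MaNonAD4 (adjusted p = 0.657). A p that misses the threshold does not show that the sexes responded alike. For Ptgs2, for example, the male AAD response was -0.35 ± 0.71 relative to the female one.

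**Figure D4:**
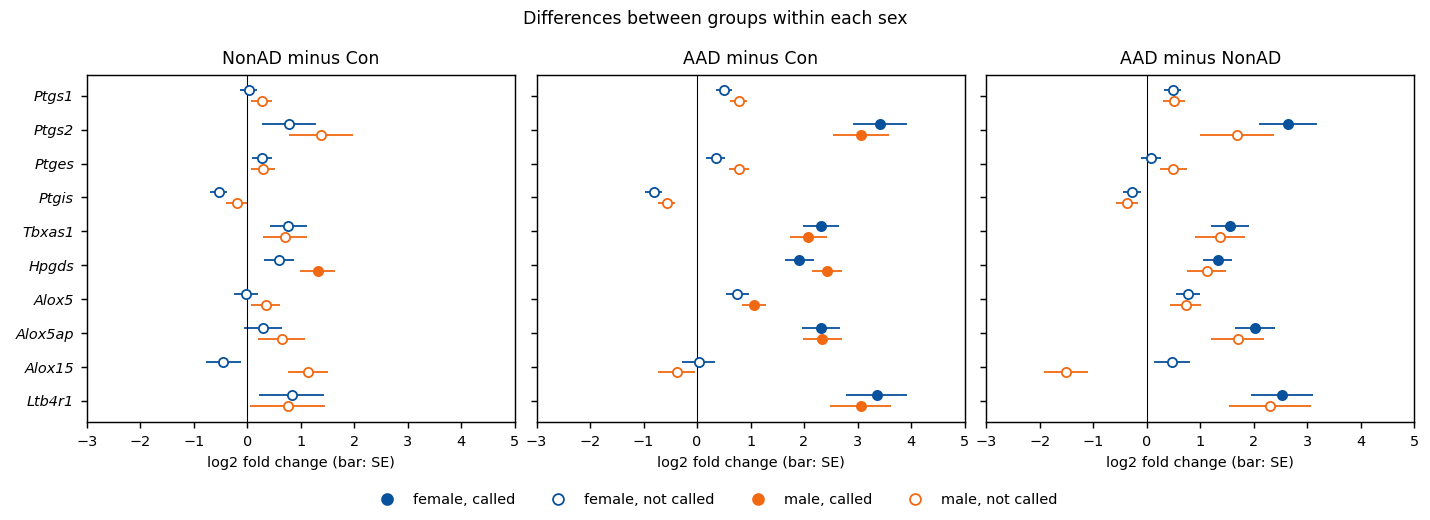
Log2 fold change of each gene with its SE in NonAD vs Con, AAD vs Con and AAD vs NonAD, females in blue and males in orange, with filled points for DEGs and open points for the rest. The filled points of the middle panel are the 5 shared genes and, in males, Alox5, while Ptgis lies to the left of 0 in every panel.

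Groups overlapped for most genes even where means differed. In FeAAD vs FeCon 2 of the 10 did not overlap (Tbxas1 and Alox5ap), where 4.89% of all tested genes did not. In MaAAD vs MaCon 4 did not (Tbxas1, Hpgds, Alox5ap and Ltb4r1), beside 8.91% of all genes, in MaAAD vs MaNonAD 2 did not (Alox5 and Alox5ap), beside 4.04%, and in MaNonAD vs MaCon 1 did not (Hpgds), beside 1.26%.

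The genes that varied most like each of the 10 from mouse to mouse, after group means were removed, were found by Pearson correlation of log2(CPM + 1) over the 48 libraries among 13228 genes. These are descriptions, since all points share the same tissue and libraries. FeAAD5 and MaAAD7, which were far above their groups for Tbxas1, Alox5ap and Ltb4r1, are included. Correlations without them were not computed, so how far the values rest on these libraries is not known. Tbxas1 went with Cfp (r = 0.92), which encodes properdin, and AB124611 (0.92), and Alox5ap with Fcer1g (0.95), an Fc receptor chain, and Cotl1 (0.95). Ltb4r1 went with Bcl2a1d (0.90) and Gm14548 (0.90), Hpgds with Pik3ap1 (0.82) and Ptpro (0.80), and Alox5 with the macrophage mannose receptor gene Mrc1 (0.82) and Wfdc17 (0.82). Ptgis had other partners, Ilk (0.93), which encodes integrin-linked kinase, and Smarcd3 (0.92). Ptgs2 went with Hars (0.81) and Nfkbiz (0.79), a gene of the NF-kB response, Ptgs1 with Frrs1 (0.75) and Cd24a (0.75), and Ptges with Psmb9 (0.68) and P2rx4 (0.66). Alox15 had the weakest partners, Atp6v0a2 (0.57) and Srsf1 (0.57). Within the set, the closest pair was Tbxas1 and Alox5ap (0.93), followed by Alox5ap and Ltb4r1 (0.87) and Tbxas1 and Ltb4r1 (0.84), while Ptgis and Hpgds were at -0.40.

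The rest of the pathway was read from lists of 63 other genes, of which 58 were in the table and 47 tested. In FeAAD vs FeCon 8 were higher and 3 lower DEGs, in MaAAD vs MaCon 11 higher and 2 lower, and in FeAAD vs FeNonAD 6 higher and 1 lower. Of all genes tested, 9.94% were higher and 2.78% lower DEGs in the first of these comparisons, 9.18% and 2.18% in the second and 6.79% and 0.249% in the third. The median log2 fold change of the 47 was 0.21, 0.12 and 0.11. Without FeAAD5, 5 were higher and 2 lower in FeAAD vs FeCon and 3 higher and 1 lower in FeAAD vs FeNonAD, and without MaAAD7, 9 were higher and 2 lower in MaAAD vs MaCon. In FeNonAD vs FeCon 1 was higher (Pla2g2d) and 1 lower (Pla2g5), beside 1.67% of all genes higher and 1.08% lower. Pla2g2d was not a DEG there without FeNonAD6, nor Pla2g5 without FeNonAD8. In MaNonAD vs MaCon none was called by edgeR or DESeq2, with 12 at an unadjusted p under 0.05, beside 12% of all genes. In MaAAD vs MaNonAD 1 was higher by edgeR (Ptger4), none without MaAAD7, and 6 by DESeq2. Of all genes, 0.353% were higher by edgeR and 3.35% by DESeq2.

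Upstream, of 13 tested phospholipase A2 genes 2 were higher and 2 lower DEGs in AAD vs control in each sex, beside the shares of all genes given above. Pla2g4a, the cytosolic enzyme best known for releasing arachidonic acid, had medians of 55.3 CPM in FeCon, 58.6 in FeAAD, 62.0 in MaCon and 67.4 in MaAAD, with log2 fold changes of 0.34 ± 0.19 (adjusted p = 0.135) and 0.043 ± 0.20 (adjusted p = 0.892). Pla2g4c rose by 1.10 ± 0.29 (females, adjusted p = 0.00184) and 1.45 ± 0.32 (males, adjusted p = 0.000277). Pla2g7, the lipoprotein-associated enzyme that degrades platelet-activating factor, rose by 1.06 ± 0.26 (adjusted p = 0.000949) and 1.21 ± 0.28 (adjusted p = 0.000510). The secreted enzymes Pla2g5 (-1.42 ± 0.37, adjusted p = 0.00150, and -1.11 ± 0.38, adjusted p = 0.0206) and Pla2g2d (-1.09 ± 0.42, adjusted p = 0.0323, and -1.36 ± 0.44, adjusted p = 0.0129) fell in females and males. Against controls, Pla2g7 and Pla2g2d were not DEGs in females without FeAAD5, Pla2g4c and Pla2g2d not without FeAAD9, and Pla2g7 and Pla2g5 not in males without MaAAD7. Among the female groups Pla2g2d was lowest in FeAAD, at 0 to 1.22 CPM, and highest in FeNonAD, at 0.828 to 9.12 CPM with FeNonAD6 on top, a fall of 2.28 (SE 0.43, adjusted p = 0.000195) from FeNonAD to FeAAD after a rise of 1.19 (SE 0.40, adjusted p = 0.0369) from FeCon. Without FeNonAD6 the Pla2g2d values were -1.73 (adjusted p = 0.00225) and 0.65 (adjusted p = 0.273). In males the Pla2g2d medians were 2.24, 1.32 and 0.719 CPM in MaCon, MaNonAD and MaAAD, with a log2 fold change of -0.91 ± 0.52 (adjusted p = 0.517) in MaNonAD vs MaCon.

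None of the 6 other prostanoid synthases tested was a DEG in any within-sex comparison by edgeR or DESeq2, and between 0 and 2 had an unadjusted p under 0.05, where the shares of all genes were 28.9% in FeNonAD vs FeCon, 50.7% in FeAAD vs FeCon, 32.1% in FeAAD vs FeNonAD, 12% in MaNonAD vs MaCon, 43.6% in MaAAD vs MaCon and 18.7% in MaAAD vs MaNonAD. Ptgds, the other prostaglandin D synthase, had medians of 0.865 and 0.619 CPM in FeCon and FeAAD and 0.979 and 0.372 CPM in MaCon and MaAAD, against the rise of Hpgds, with log2 fold changes of -0.75 ± 0.38 (adjusted p = 0.106) and -0.28 ± 0.41 (adjusted p = 0.627). It was a lower DEG in MaAAD vs MaCon without MaAAD7, where it was at 2.80 CPM, the highest of its group.

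Of 8 tested genes on a list of other lipoxygenases and leukotriene enzymes, 2 were higher DEGs in AAD vs control in each sex and none lower by edgeR. The shares of all genes in these comparisons are given above. DESeq2 also called 2 higher in each sex, and 1 lower in females, Aloxe3, which the filter on low counts had left out of the 8. Dpep2, a dipeptidase that trims leukotriene D4, rose from a median of 1.04 to 7.49 CPM in females (3.13 ± 0.39, adjusted p = 1.63e-08) and from 1.19 to 10.4 CPM in males (3.20 ± 0.40, adjusted p = 4.11e-08), with no overlap in either sex. Ggt5, which acts on leukotriene C4, rose by 1.25 ± 0.24 (adjusted p = 2.90e-05) and 1.22 ± 0.25 (adjusted p = 0.000119), and was not a DEG in FeAAD without FeAAD5. Pla2g4a, Ptgds, Lta4h, Ltc4s and Tbxa2r were not DEGs and are named by choice, with their values seen, for their place in the pathway. Of the branch-point enzymes, Lta4h, which makes leukotriene B4, had medians from 48.9 to 54.2 CPM over the 6 groups, with log2 fold changes of 0.11 ± 0.073 (adjusted p = 0.234) and 0.0092 ± 0.078 (adjusted p = 0.942). Ltc4s, which makes leukotriene C4, rose by 0.68 ± 0.23 in females (adjusted p = 0.0130), with 0.45 ± 0.24 in males (adjusted p = 0.145).

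Among receptors, Cysltr1, for cysteinyl leukotrienes, rose in AAD from medians of 0.560 to 4.23 CPM in females (3.15 ± 0.39, adjusted p = 1.53e-08) and 0.702 to 4.89 CPM in males (3.41 ± 0.41, adjusted p = 1.80e-08). Fpr2, a receptor for lipoxin A4 and formyl peptides, rose by 4.45 ± 0.78 (adjusted p = 9.59e-06) and 4.36 ± 0.85 (adjusted p = 6.30e-05) from control medians of 0.205 and 0.0665 CPM, with 27.0 CPM in FeAAD5 and 11.7 CPM in MaAAD7 above AAD medians of 0.824 and 0.964 CPM. Cyp4f18, which inactivates leukotriene B4, rose by 3.85 ± 0.49 (adjusted p = 2.34e-08) and 3.24 ± 0.49 (adjusted p = 1.05e-06), without overlap between AAD and control in either sex. Against controls, Cysltr1, Fpr2 and Cyp4f18 were DEGs also without FeAAD5 or MaAAD7, while Fpr2 was not a DEG in FeAAD vs FeNonAD without FeAAD5.

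Of 7 tested prostanoid receptors, Ptger2, for prostaglandin E2, was a higher DEG in both sexes (1.49 ± 0.40, adjusted p = 0.00198, and 1.31 ± 0.41, adjusted p = 0.0108), but not without FeAAD5 or MaAAD7 respectively. Ptger4, another receptor for prostaglandin E2, rose by 1.56 ± 0.17 in males (adjusted p = 1.86e-09), where 9.16 to 14.2 CPM in MaAAD stood above 3.05 to 5.37 CPM in MaCon, and by 0.78 ± 0.16 in females (adjusted p = 6.15e-05). Ptgir, for prostacyclin, rose by 1.11 ± 0.23 in males (adjusted p = 0.000137), with 0.21 ± 0.21 in females (adjusted p = 0.444). Ptgfr, for prostaglandin F2 alpha, fell by 1.27 in females (SE 0.28, adjusted p = 0.000239), with -0.49 ± 0.30 in males (adjusted p = 0.207). Tbxa2r, for thromboxane, fell by 0.55 (SE 0.16, adjusted p = 0.00445) and 0.93 (SE 0.17, adjusted p = 2.97e-05), below the 2-fold limit, while Tbxas1 rose. The prostaglandin transporter Slco2a1 rose by 1.65 ± 0.18 in males (adjusted p = 2.19e-09) and 0.73 ± 0.17 in females (adjusted p = 0.000370). No gene of these lists was a DEG in an interaction with sex by edgeR or DESeq2, with 6, 7 and 1 at an unadjusted p under 0.05 for the NonAD response, the AAD response and the step between them, beside 12.1%, 15.4% and 1.04% of all genes. The AAD response of Slco2a1 was larger in males by 0.92 ± 0.24 (adjusted p = 0.0431), below the 2-fold limit, and that of Ptger4 by 0.78 ± 0.23 (adjusted p = 0.0690).

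**Figure D5:**
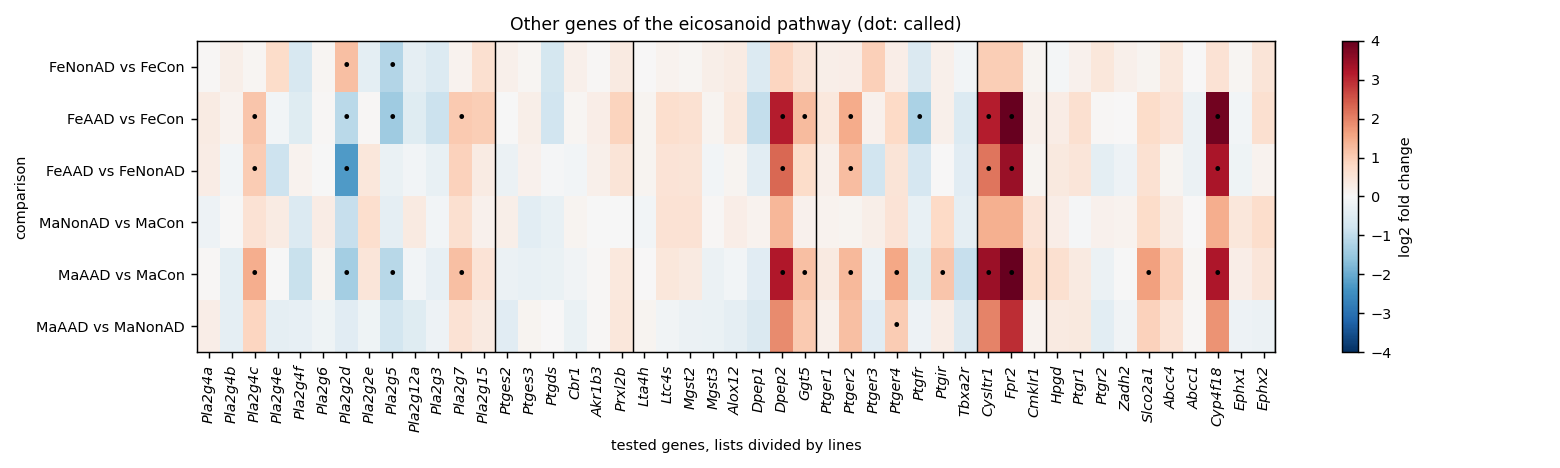
Log2 fold change (colour, red higher and blue lower) of the 47 other tested pathway genes in the 6 within-sex comparisons, with a dot where a gene was a DEG and lines between the lists. The strongest red columns are Dpep2, Cysltr1, Fpr2 and Cyp4f18 in AAD vs control of both sexes.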

How the data were processed

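Strand-specific mRNA libraries of 48 mouse thoracic aortas were represented by a table of expected counts per gene, deposited by the authors, who used Bowtie2 and RSEM 1.3.1 with GRCm39 per the submitters' processing notes. The annotation release was not given in the sources used here. Of the values, 4.99% were not whole and were rounded, since RSEM divides reads that map to several genes. The values of the 10 genes were all whole. The test had been planned for plain counts and was run on the rounded values. Library totals were 13548003 to 17281262, which sets the counting precision of low genes such as Ltb4r1.

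Groups followed the sample titles. The members and gene lists were chosen with earlier results of these data known. Genes were filtered with filterByExpr, scaled by TMM and fitted over all 6 groups with edgeR 4.0.16 (robust glmQLFit and glmQLFTest, R 4.3.3), with Benjamini-Hochberg adjustment over 14431 genes. DEGs were genes at an adjusted p below 0.05 that differed by 1 or more on the log2 scale. The SE of a log2 fold change is approximate. CPM ratios used a pseudocount of 0.1 CPM. The fit was tested on simulated data. Alternatives were DESeq2 1.42.0, its size factors, no filter, no robust estimation, the compared groups only, adjusted p alone, a replicate block, pseudocounts of 0.5 and 1 CPM, and fits without FeNonAD8 or each MaNonAD library. Fits without FeAAD5, FeAAD9 or MaAAD7, and without FeNonAD6 for Pla2g2d, were chosen after seeing the data.

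All 10 genes were described, with the 2 genes most like each by correlation. From the other lists DEGs of any within-sex comparison could be named, and 5 further pathway genes were named after their values were seen. So were Mertk, a macrophage marker that was not a DEG, and Aloxe3, called by DESeq2 but left out of the edgeR test. Gene positions and lengths came from GENCODE M21 on GRCm38 and start-site sequences from RefSeq on GRCm38.p6, a different build from that of the counts. Annotated genes overlap some members: on the same strand Gm13400 for Ptges and Gm23010 for Tbxas1, and on the opposite strand others for Ptgs1, Ptgis, Tbxas1, Hpgds and Alox5ap. Whether the counting used strand was not given in the sources used here, so reads of such partners may not be told apart.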

Additional observations from a re-analysis of the deposited data

Results flagged for a closer look

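Of 60 pairs of a gene and a group, 15 held a library far from the rest of its group by Dixon's test on CPM, each at the high end. The chance rate of this test, about 1 in 20 groups, holds for normally distributed and independent values. CPM was not transformed and several of the genes varied together, so that rate is not the expectation here. In FeAAD5 these were Ptgs1 (65.6 CPM), Tbxas1 (60.3 CPM), Alox5 (29.6 CPM), Alox5ap (241 CPM) and Ltb4r1 (26.4 CPM). In MaAAD7 they were Ptgs2 (206 CPM), Tbxas1 (42.0 CPM), Alox5ap (134 CPM) and Ltb4r1 (20.0 CPM). FeAAD9 stood out for Ptgs2 alone (597 CPM). FeNonAD8 had high Alox5 (12.1 CPM) and Alox5ap (30.1 CPM). MaNonAD1 had high Ptgs2 (44.3 CPM) and Hpgds (6.35 CPM), and FeCon6 had high Alox15 (4.10 CPM).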

How the results depend on the processing

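Of 1275 refitted log2 fold changes 1227 kept their direction and their side of the adjusted p threshold, as did 172 of 180 log2 ratios, and 165 of 180 counts of DEGs stayed within 1.5 times. With adjusted p alone, 1 gene was called in FeNonAD vs FeCon (0 with the fold limit) and 8 in FeAAD vs FeCon (5 with it). The shares of all genes with adjusted p alone were 14.5% and 44.4%. In MaAAD vs MaNonAD the count of 0 became 5 with DESeq2 and 1 with DESeq2's size factors, and 0 to 5 when single libraries were left out. In MaNonAD vs MaCon and in MaNonAD vs FeNonAD the count of 1 became 0 to 1 when single libraries were left out, and in the latter 0 when only the compared groups were fitted. The cause of these shifts was not tested.

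Shared replicate numbers did not pair the mice: no comparison had every pair's correlation over 0.1 (mean r from -0.0661 to 0.160), and at most 2 libraries of a group correlated best with their own number. With a replicate block the DEG count was 0 in MaNonAD vs MaCon and 0 in MaNonAD vs FeNonAD, Hpgds in the former was at 1.36 (adjusted p = 0.0918), Alox15 in the latter at 1.80 (adjusted p = 0.253), Ptgis in FeNonAD vs FeCon at -0.49 (adjusted p = 0.0573) and Ptgs2 in FeAAD vs FeNonAD at 1.84. The block also turned the sign of Alox5ap in MaAAD vs FeAAD (0.12 in place of -0.10) and Ptgs2 in MaNonAD vs FeNonAD (0.0099 in place of -0.044).

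Small sex differences changed sign when single libraries were left out. In MaAAD vs FeAAD the ranges were -0.053 to 0.26 for Ptgs1, -0.0087 to 0.087 for Ptgis, -0.39 to 0.77 for Tbxas1, -0.078 to 0.38 for Alox5, -0.54 to 0.68 for Alox5ap and -0.60 to 1.02 for Ltb4r1. In MaNonAD vs FeNonAD they were -0.71 to 0.18 for Ptgs2, -0.22 to 0.18 for Ptges and -0.051 to 0.76 for Ltb4r1. Of differences within a sex, Ptges in FeAAD vs FeNonAD (-0.056 to 0.22) and Alox15 in FeAAD vs FeCon (-0.059 to 0.037) also changed sign. The log2 ratio of Ptgis to Tbxas1 changed sign in MaNonAD vs FeNonAD (-0.28 to 0.11) and in MaAAD vs FeAAD (-0.54 to 0.14). It kept its sign in MaNonAD vs MaCon (-1.05 to -0.65) and in MaAAD vs MaNonAD (-1.74 to -1.23). Depth limits Ltb4r1 and Alox15 most, with as few as 1 and 7 counts in a library.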
